A study of Arabidopsis thaliana with 12 samples.

Results

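A set of 10 genes whose transcripts mark dividing plant cells was followed in the aerial part of a mettl16 mutant and of its reference accession Col-0 of Arabidopsis thaliana. The genes were taken by locus identifier as a fixed list of 10 among the 25566 genes of the expression table. They are the cyclins CYCA1;1, CYCB1;1, CYCB1;2, CYCB1;4 and CYCD3;1, the cyclin-dependent kinases CDKB1;1, CDKB2;1 and CDKB2;2, the cytokinesis syntaxin KNOLLE and the anaphase activator CDC20.1. All 10 passed the filter on low values, a mean FPKM (fragment counts corrected for transcript length and library depth) of 0.5 or more over the 6 RNA-seq libraries. In the authors' deposited table of m6A peaks 2 of the 10 had a row and the other 8 had none.

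The mutant group was mettl16, with no further allele named in the labels, and the other group was Col-0. Both groups were 3-week-old plants of the Col-0 ecotype, kept at 23 °C with 16 h of light and 8 h of darkness. Each genotype had 3 biological replicates, each with an RNA-seq library and an m6A immunoprecipitate, or 12 samples in all. N6-methyladenosine (m6A) is a methyl mark on adenosines inside mRNA, and METTL16 is one of the methyltransferases that add it. No locus was labelled, and from general knowledge the Arabidopsis homologue FIO1 (AT2G21070) was read as the mutant's target. FIO1 stood at 0.292, 0.148 and 0.197 FPKM in mettl16 and at 1.98, 2.12 and 2.31 FPKM in Col-0. The series was set up around flowering time control by m6A, and the comparison here asks whether transcripts of dividing cells differ between the genotypes.

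Plant cells divide under cyclin-dependent kinases (CDKs), which act when bound to a cyclin. D-type cyclins couple growth and hormone signals to the start of DNA replication. A- and B-type cyclins and the plant-specific B-type CDKs drive entry into mitosis, and most of their transcripts accumulate only as cells approach division. The anaphase-promoting complex, a ubiquitin ligase switched on by CDC20, then destroys the mitotic cyclins, and the daughter cells are separated by a cell plate that grows by fusion of vesicles. In shoots such transcripts come mostly from meristems, leaf primordia and young floral organs, and they are diluted in whole aerial tissue, where most cells no longer divide.

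FPKM summed over all genes to 699031 to 706690 in the mettl16 libraries and to 714685 to 718824 in the Col-0 libraries, and Col-0 replicate 1 was the shallowest, with an estimated depth of 0.637 relative to Col-0 replicate 3. Markers of floral organs and anthers summed to 71.5 to 74.4 FPKM in mettl16 and to 1.58 to 1.78 FPKM in Col-0. All 9 of that list were higher in mettl16, with AT5G07230, AT4G14080 and ATA7 listed at 0 in every Col-0 library. Each of the 9 had a Col-0 mean under 0.5 FPKM and passed the filter only through its mettl16 values, so none could have been called lower. Shoot meristem markers summed to 78.0 to 82.2 FPKM in mettl16 and to 32.1 to 34.7 FPKM in Col-0. Of that list of 5, STM and KNAT1, homeobox genes that keep meristem cells undifferentiated, rose by 1.21 and 2.29 on the log2(FPKM + 1) scale (limma adjusted p = 6.72e-07 and 2.26e-10). CLV1 had a change of 0.10 (limma adjusted p = 0.0441, and 0.514 after median centring), WUS stood at 0.253 to 0.392 FPKM in mettl16 with 0 listed in Col-0, and CLV3 was at or near 0 throughout. Leaf mesophyll markers, the defining transcripts of green aerial tissue, were high in both genotypes, at sums of 28310 to 30830 FPKM in mettl16 and 28950 to 30620 FPKM in Col-0. Most of that sum was RBCS1A, and LHCB1.1, a light-harvesting protein gene of the same list, fell by 0.61, with 3449 FPKM in mettl16 and 5273 FPKM in Col-0 on average (limma adjusted p = 5.31e-08). Of the 4 root markers, COBL9 was at or near 0, and PYK10 stood at 63.9 to 67.9 FPKM in mettl16 and at 63.3 to 65.5 FPKM in Col-0. The remaining 2, RHD6 and EXPA7, are absent from the genes with deposited expression values. The part of the floral, meristem and leaf markers in the results below was not tested.

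Of the 10 genes 9 rose in mettl16, none fell and CDC20.1 did not pass the test. The rises were small, with ratios of mean FPKM between 1.13 and 1.46, and CDC20.1 had a ratio of 1.02. The median change over the 10 genes was 0.27 on the log2(FPKM + 1) scale, on which every transcript change here is given, against 0.08 over all 19505 genes tested. Across all genes 64.5% were called at a limma adjusted p under 0.05, 41.1% higher and 23.4% lower, so a rise was common in this comparison. The 3 mettl16 values lay wholly above the 3 Col-0 values for 8 of the 10 genes, against 43.9% of all genes tested. The levels of the 10 genes together summed to 152 to 156 FPKM in the mettl16 libraries and to 122 to 125 FPKM in the Col-0 libraries. In bulk tissue, more dividing cells and more transcript in each dividing cell cannot be told apart.

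The scaling of the libraries decided 4 of the 9 calls. After median centring 5 of the 10 genes were higher and none lower, with 63.6% of all genes called and 33.4% called higher. Quantile normalization also left 5 higher and none lower, with 63.3% of all genes called and 31.2% called higher. The same 5 genes, CYCB1;1, CYCB1;4, CYCD3;1, CDKB2;1 and KNOLLE, passed in both and under each of the other alternatives, 14 in all. The remaining 4 risers passed on the deposited scale but after neither of these 2 rescalings. Rescaling to TPM, an equal total for every library, kept all 9 calls, with none lower. Of all 19505 genes, 8626 were then called higher and 4148 lower. Of all called genes 63.7% were higher on the deposited scale, against 52.5% with median centring and 49.3% with quantile normalization.

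**Figure D1:**
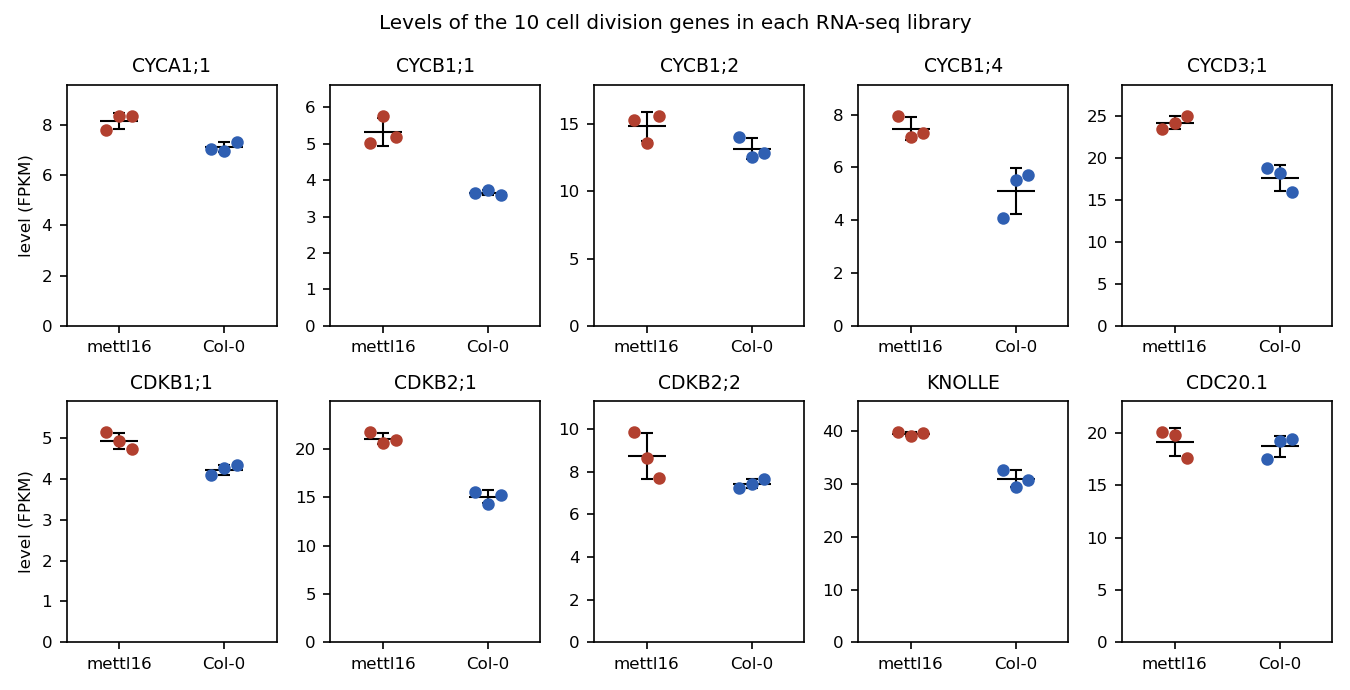
Level in FPKM (vertical axis, starting at 0, its own scale in each panel) of each of the 10 genes, with the 3 mettl16 libraries in red on the left and the 3 Col-0 libraries in blue on the right. Points are libraries, and the bars are the mean and SD of 3. The red points lie above all blue points in 8 panels and overlap them in 2.

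The order of the levels was nearly shared by the genotypes. KNOLLE was the highest of the 10, at 39.5 ± 0.415 FPKM in mettl16 and 31.0 ± 1.6 FPKM in Col-0 (SD, n = 3 each), above 85.4% of tested genes in mettl16 and 82.4% in Col-0. In mettl16 the order continued with CYCD3;1, CDKB2;1, CDC20.1, CYCB1;2, CDKB2;2, CYCA1;1, CYCB1;4, CYCB1;1 and CDKB1;1. Ranges of neighbours overlapped at the sixth and seventh, seventh and eighth, and last places. In Col-0 CDC20.1 stood directly below KNOLLE, with a range that overlapped that of the D-type cyclin after it, and the 2 last places were exchanged. In Col-0 ranges also overlapped at the sixth and seventh and at the eighth and ninth places. CDKB1;1 had 4.92 ± 0.203 FPKM in mettl16 and 4.22 ± 0.127 FPKM in Col-0, above 31.9% of tested genes in mettl16 and 30.2% in Col-0.

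The D-type cyclin of the list, CYCD3;1 (AT4G34160, chromosome 4, 16357639 to 16359555, plus strand, build TAIR10), responds to cytokinin and keeps shoot cells in the division phase. It had 23.5, 24.2 and 25.0 FPKM in the mettl16 libraries and 18.9, 18.2 and 15.9 FPKM in the Col-0 libraries. Every mettl16 library was above every Col-0 library, and Col-0 replicate 3 was the lowest of the 6. The change was 0.44 (SE 0.0588, 95% interval 0.31 to 0.57, limma adjusted p = 0.000122). Its close relatives CYCD3;2 and CYCD3;3, which share its work in shoot and leaf growth, rose with it. The first of them had 51.2, 50.6 and 50.2 FPKM in mettl16 and 38.0, 36.5 and 36.1 FPKM in Col-0, a change of 0.45 (limma adjusted p = 1.09e-06). The second had 11.9, 13.2 and 11.9 FPKM in mettl16 and 7.66, 7.79 and 8.09 FPKM in Col-0, a change of 0.59 (limma adjusted p = 5.82e-06). The ratio of CYCD3;1 to CYCD3;2 within a library, which a single factor per library cannot alter, was 0.459, 0.477 and 0.499 in mettl16 and 0.496, 0.498 and 0.441 in Col-0. These ranges overlapped, with a difference of 0.0018 on the log2 scale (two-sided exact permutation p = 0.9). With 3 libraries against 3 no such ratio test can give a p under 0.1, and the pairs were chosen after values had been seen.

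Of the 9 other D-type cyclins of a list, 8 were tested, 3 rose, none fell and 5 did not pass, a share near the 41.1% of all genes called higher. The third riser, CYCD1;1, had 18.3 ± 0.207 FPKM in mettl16 and 12.8 ± 0.507 FPKM in Col-0 (SD, n = 3 each), a change of 0.49 (limma adjusted p = 4.57e-06). The median of the 8 was 0.11, close to the 0.08 of all genes. Median centring and quantile normalization each left 3 of the 8 higher, beside 33.4% and 31.2% of all genes. The 5 that did not pass had changes between 0.01 and 0.13.

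B-type cyclins activate CDKs at mitosis, and the promoter of CYCB1;1 (AT4G37490, chromosome 4, 17621886 to 17624285, minus strand) drives the usual reporter of G2 and mitotic cells. The gene had 5.02, 5.76 and 5.19 FPKM in mettl16 and 3.65, 3.72 and 3.59 FPKM in Col-0. The groups were well apart, and the Col-0 values were nearly the same. The change was 0.44 (SE 0.0636, 95% interval 0.30 to 0.58, limma adjusted p = 0.000194). Its relative CYCB1;4 (AT2G26760, chromosome 2, 11401329 to 11403427, plus strand) had 7.95, 7.14 and 7.32 FPKM in mettl16 and 4.10, 5.51 and 5.71 FPKM in Col-0. All mettl16 values were above all Col-0 values, and Col-0 replicate 1, the shallowest library, was the low one. The change of 0.48 (SE 0.10, 95% interval 0.25 to 0.71, limma adjusted p = 0.00235) was 0.36 without that library (limma adjusted p = 0.00115). It was the largest change of the 10 genes on the deposited scale, with the widest interval.

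CYCB1;2 (AT5G06150, named CYC1BAT in RefSeq, chromosome 5, 1859279 to 1861649, minus strand), the most abundant of the B1-type cyclins listed, had 15.3, 13.6 and 15.6 FPKM in mettl16 and 14.0, 12.5 and 12.9 FPKM in Col-0. Its groups overlapped, since mettl16 replicate 2 was below Col-0 replicate 1. The change was 0.16 (SE 0.0603, 95% interval 0.02 to 0.29, limma adjusted p = 0.041). The call was lost without mettl16 replicate 1 (0.14, limma adjusted p = 0.123) or 3 (0.12, 0.136) and without Col-0 replicate 2 (0.13, 0.125) or 3 (0.15, 0.105). A relative outside the 10, CYCB1;3, had 5.28, 4.78 and 5.22 FPKM in mettl16 and 3.80, 3.44 and 3.48 FPKM in Col-0, a change of 0.41 (limma adjusted p = 0.00031). The ratio of CYCB1;1 to CYCB1;2 was 0.329, 0.425 and 0.334 in mettl16 and 0.261, 0.297 and 0.279 in Col-0. It was higher in every mettl16 library, by 0.37 on the log2 scale, with a two-sided exact permutation p of 0.1, the smallest that 3 against 3 allows, and of 0.167 adjusted over the 5 pairs of relatives compared.

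CYCA1;1 (AT1G44110, chromosome 1, 16774865 to 16777247, minus strand), an A-type cyclin, had 7.78, 8.35 and 8.33 FPKM in mettl16 and 7.04, 6.94 and 7.32 FPKM in Col-0. The groups did not overlap, but the nearest values differed by little. The change was 0.18 (SE 0.0504, 95% interval 0.06 to 0.29, limma adjusted p = 0.012). It was 0.105 and not called after median centring (limma adjusted p = 0.0924) or quantile normalization (0.0932).

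Of the 17 other A- and B-type cyclins, 15 were tested, 11 rose, none fell and 4 did not pass, with a median of 0.31. Median centring and quantile normalization each left 9 of the 15 higher and none lower. Over all genes 41.1% were called higher on the deposited scale, 33.4% with median centring and 31.2% with quantile normalization. The largest rise, 0.51, was that of CYCB3;1, a divergent B-type cyclin with 3.53 ± 0.347 FPKM in mettl16 and 2.19 ± 0.422 FPKM in Col-0 (SD, n = 3 each, limma adjusted p = 0.00153). CYCA1;2, known for its part in male meiosis, rose by 0.46, with 1.51 ± 0.139 FPKM in mettl16 and 0.822 ± 0.061 FPKM in Col-0 (limma adjusted p = 0.000646). The 4 that did not pass were A2- and A3-type cyclins, with changes between -0.07 and 0.16.

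The B-type CDKs are kinases found in plants and needed for mitosis. CDKB2;1 (AT1G76540, chromosome 1, 28720328 to 28722521, minus strand), which acts in the shoot meristem, had 21.7, 20.6 and 20.9 FPKM in mettl16 and 15.6, 14.3 and 15.2 FPKM in Col-0. The groups were far apart relative to their spread. The change of 0.46 (SE 0.0434, 95% interval 0.36 to 0.56, limma adjusted p = 1e-05) had the smallest adjusted p of the 10 genes. Its span overlaps the opposite-strand gene AT1G76530 by 44 bases, and AT1G76530 stood at 5.33, 5.27 and 5.62 FPKM in mettl16 and at 2.18, 2.17 and 1.81 FPKM in Col-0. The sources used here do not give whether strand was used in counting, so reads in those 44 bases cannot be assigned with certainty.

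Its paralogue CDKB2;2 (AT1G20930, chromosome 1, 7292568 to 7294746, minus strand) had 9.83, 8.63 and 7.72 FPKM in mettl16 and 7.22, 7.43 and 7.65 FPKM in Col-0. The groups did not overlap, but mettl16 replicate 3 was close to the highest Col-0 library. The change was 0.20 (SE 0.0747, 95% interval 0.03 to 0.37, limma adjusted p = 0.0391). The call was lost without mettl16 replicate 1 (0.12, limma adjusted p = 0.137) or 2 (0.20, 0.0815) and without Col-0 replicate 1 (0.18, 0.0993), 2 (0.20, 0.0802) or 3 (0.22, 0.059). The ratio of CDKB2;1 to CDKB2;2 was 2.21, 2.38 and 2.71 in mettl16 and 2.16, 1.92 and 1.99 in Col-0. The ranges did not overlap, with a difference of 0.26 on the log2 scale. The two-sided exact permutation p was 0.1, the smallest that 3 against 3 allows, and 0.167 adjusted over the 5 pairs. The paralogues are similar in sequence, and the split of shared reads between them is uncertain.

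CDKB1;1 (AT3G54180, chromosome 3, 20059796 to 20061438, plus strand), which acts at entry into mitosis and in stomatal divisions, had 5.13, 4.92 and 4.72 FPKM in mettl16 and 4.08, 4.25 and 4.32 FPKM in Col-0. The groups did not overlap. The change was 0.18 (SE 0.058, 95% interval 0.05 to 0.31, limma adjusted p = 0.0195). The call, but not the change, was lost without mettl16 replicate 1 (0.16, limma adjusted p = 0.0681) and without Col-0 replicate 1 (0.16, 0.057). Its relative CDKB1;2 had 3.12, 3.00 and 2.62 FPKM in mettl16 and 2.32, 1.96 and 2.21 FPKM in Col-0, a change of 0.31 (limma adjusted p = 0.00741, and 0.0731 after quantile normalization). The ratio of the first gene to the second was 1.64, 1.64 and 1.80 in mettl16 and 1.76, 2.17 and 1.95 in Col-0. These ranges overlapped, with a difference of -0.21 on the log2 scale (two-sided exact permutation p = 0.2, and 0.25 adjusted over the 5 pairs).

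CDKA;1, the main kinase partner of cyclins throughout the cycle, had 31.7, 31.1 and 31.2 FPKM in mettl16 and 28.7, 28.8 and 28.8 FPKM in Col-0, more than any of the B-type CDKs. Its change of 0.12 (limma adjusted p = 0.00599) was close to the 0.08 of all genes and was not called after median centring (limma adjusted p = 0.183) or quantile normalization (0.289). In the list of other CDKs and of CKS subunits, small proteins that bind CDKs, 3 of 4 rose and 1 fell, with a median of 0.21. Median centring left 2 higher and 1 lower, and quantile normalization 1 higher and 1 lower. The shares of all genes called higher were 41.1% on the deposited scale, 33.4% with median centring and 31.2% with quantile normalization. CKS2 rose by 0.39 (limma adjusted p = 0.000804). CKS1 had a change of -0.15 (limma adjusted p = 0.0374), a call lost under 7 of the 14 alternatives, among them leaving out mettl16 replicate 1 (0.0775) or Col-0 replicate 1 (0.0775), 2 (0.0712) or 3 (0.088). CKS1 and CKS2 are neighbouring relatives that can share reads.

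KNOLLE (AT1G08560, named SYP111 in RefSeq, chromosome 1, 2709632 to 2710912, minus strand) encodes the syntaxin that fuses vesicles into the cell plate, and it is made in dividing cells. It had 39.8, 39.0 and 39.7 FPKM in mettl16 and 32.7, 29.5 and 30.9 FPKM in Col-0. The mettl16 libraries were nearly equal and all above Col-0. The change was 0.34 (SE 0.0398, 95% interval 0.25 to 0.43, limma adjusted p = 4.57e-05).

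The partners of KNOLLE in vesicle fusion split. Of the 16 other cytokinesis genes, all tested, 11 rose, 3 fell and 2 did not pass, with a median of 0.29. NPSN11, a SNARE protein that pairs with KNOLLE, rose by 0.46, with 19.6 ± 1.07 FPKM in mettl16 and 14.0 ± 0.683 FPKM in Col-0 (SD, n = 3 each, limma adjusted p = 3.45e-05). SNAP33, its other SNARE partner, which also serves in cells that do not divide, fell by 0.47, with 31.7 ± 0.575 FPKM in mettl16 and 44.2 ± 0.17 FPKM in Col-0 (limma adjusted p = 6.11e-07). KEU, the Sec1-type regulator that binds KNOLLE, fell by 0.29, with 17.4 ± 0.31 FPKM in mettl16 and 21.5 ± 0.614 FPKM in Col-0 (limma adjusted p = 9.87e-05). The third faller was MAP65-1, a microtubule-bundling protein, with a change of -0.11 (limma adjusted p = 0.014). Its call was lost without mettl16 replicate 1 (limma adjusted p = 0.0526), while its relative MAP65-4 rose by 0.49 (limma adjusted p = 0.000472). On the deposited scale 41.1% of all genes were called higher and 23.4% lower. After quantile normalization 9 of the 16 rose and 3 fell, against 31.2% and 32.1% of all genes.

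CDC20.1 (AT4G33270, chromosome 4, 16044352 to 16046792, minus strand), the activator that turns on the anaphase-promoting complex, was the only one of the 10 that did not pass. It had 20.0, 19.8 and 17.6 FPKM in mettl16 and 17.5, 19.2 and 19.4 FPKM in Col-0. The groups overlapped almost fully. The change was 0.03 (SE 0.0579, 95% interval -0.10 to 0.16, limma adjusted p = 0.673), and it was -0.04 after median centring. CDC20.2, its neighbour and near copy, had 10.1, 9.38 and 9.46 FPKM in mettl16 and 8.15, 8.39 and 8.17 FPKM in Col-0, a change of 0.20 (limma adjusted p = 0.00383). The ratio of CDC20.1 to CDC20.2 was 1.99, 2.11 and 1.86 in mettl16 and 2.15, 2.29 and 2.38 in Col-0. It was lower in every mettl16 library, with a difference of -0.19 on the log2 scale. The two-sided exact permutation p was 0.1, the smallest that 3 against 3 allows, and 0.167 adjusted over the 5 pairs. Reads shared by the copies make that split uncertain.

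Of the 13 other subunits, activators and ubiquitin-conjugating partners of the anaphase-promoting complex, 10 rose, 1 fell and 2 did not pass, with a median of 0.21. On the deposited scale 41.1% of all genes were called higher, and 33.4% after median centring. CDC27A, a subunit of the complex, rose by 0.72, with 2.47 ± 0.211 FPKM in mettl16 and 1.1 ± 0.192 FPKM in Col-0 (SD, n = 3 each, limma adjusted p = 7.29e-05). UBC20 rose by 0.50 (limma adjusted p = 2.8e-05), while its more abundant relative UBC19 fell by 0.17 (limma adjusted p = 0.00417). CCS52B, an activator of the same complex, rose by 0.22 (limma adjusted p = 0.00544). After median centring 7 of the 13 rose and 1 fell, and after quantile normalization 4 rose and 1 fell, the last a share of risers near the 31.2% of all genes.

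**Figure D2:**
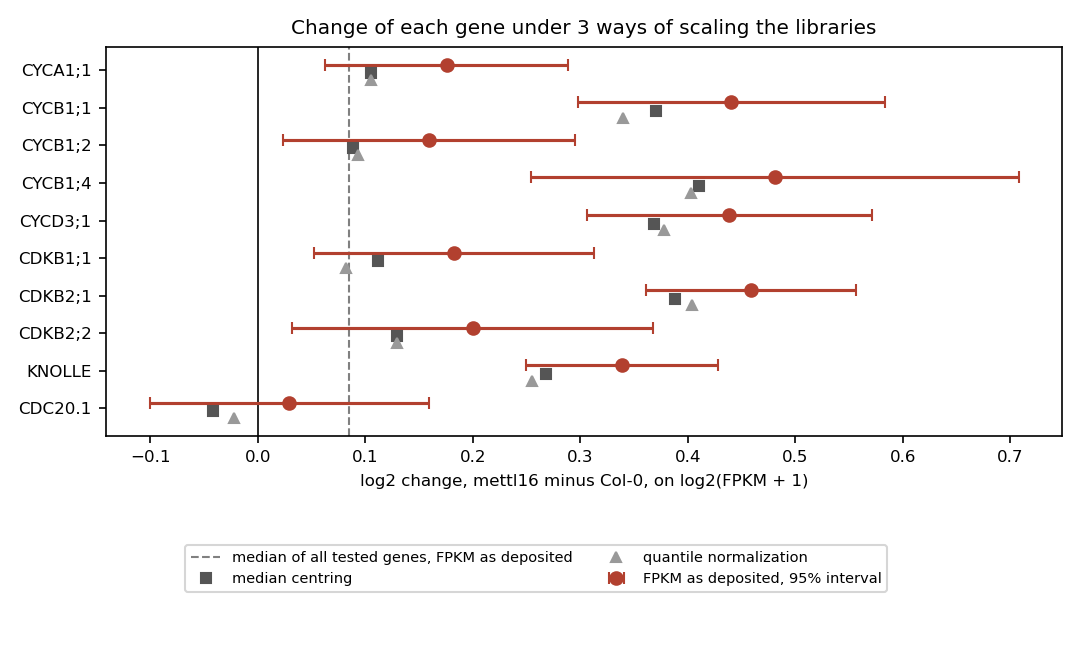
Log2 change on log2(FPKM + 1), mettl16 minus Col-0 (horizontal axis), of each of the 10 genes on the deposited scale (red, with the 95% interval from limma), with median centring (squares) and with quantile normalization (triangles). The dashed line is the median of all tested genes, 0.08. The 5 genes called under every alternative have intervals wholly right of it, and CDC20.1 lies on both sides of 0 depending on the scaling.

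Genes that restrain or control the cycle were set beside the 10. Of the 14 CDK inhibitors and WEE1, a kinase that delays mitosis, 8 rose, 3 fell and 3 did not pass, with a median of 0.38. SIM, which blocks mitosis in cells that go on to endoreduplicate such as trichomes, rose by 0.76, with 16.7 ± 1.94 FPKM in mettl16 and 9.45 ± 0.711 FPKM in Col-0 (SD, n = 3 each, limma adjusted p = 3.26e-05). SMR5, a relative linked to stress, rose by 0.74 (limma adjusted p = 0.0311), a call lost with a pseudocount of 0.1 (0.0687), after quantile normalization (0.0619) and without mettl16 replicate 1 (0.069), 2 (0.0909) or 3 (0.0804). KRP1, an inhibitor of CDKs, fell by 0.43, with 22.8 ± 0.347 FPKM in mettl16 and 31.1 ± 1.59 FPKM in Col-0 (limma adjusted p = 1.14e-05). AT1G08180 fell by 0.28 (limma adjusted p = 0.00251) and KRP4, of the same family as KRP1, fell by 0.26 (limma adjusted p = 0.00367). Others of that family rose, among them KRP2 by 0.50 and KRP6 by 0.56 (limma adjusted p = 3.2e-06 and 3.47e-06). After median centring 8 of the 14 rose and 3 fell, and after quantile normalization 6 rose and 3 fell. Over all genes 41.1% were higher and 23.4% lower on the deposited scale. The shares were 33.4% and 30.2% after median centring, and 31.2% and 32.1% after quantile normalization.

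Of the 15 transcription regulators of the cycle, 9 rose, none fell and 6 did not pass, with a median of 0.21. MYB3R1, a MYB protein that binds the promoters of G2 and mitotic genes, rose by 0.81, with 12.5 ± 0.378 FPKM in mettl16 and 6.74 ± 0.427 FPKM in Col-0 (SD, n = 3 each, limma adjusted p = 7.99e-07). DEL3, an atypical E2F protein, rose by 0.41 (limma adjusted p = 0.00183), and RBR1, the retinoblastoma homologue through which D-type cyclins act, rose by 0.24 (limma adjusted p = 0.000248). On the deposited scale 41.1% of all genes were called higher and 23.4% lower. Median centring left 7 of the 15 higher and none lower, against 33.4% and 30.2% of all genes. After quantile normalization 6 rose and 3 fell, against 31.2% and 32.1% of all genes. Those 3, MYB3R3, MYB3R5 and DEL2, were called under no other alternative. Of the 12 spindle, kinetochore and mitotic kinase genes 10 rose, none fell and 2 did not pass, with a median of 0.31. Median centring left 9 of the 12 higher and quantile normalization left 8, with none lower in either. The shares of all genes called higher were 41.1% on the deposited scale, 33.4% with median centring and 31.2% with quantile normalization. AUR1, an Aurora kinase, rose by 0.52, with 11.3 ± 1.42 FPKM in mettl16 and 7.55 ± 0.436 FPKM in Col-0 (limma adjusted p = 0.000295). BUBR1, a spindle checkpoint protein, rose by 0.45 (limma adjusted p = 3.21e-05).

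Over the 8 lists, 65 of 97 tested genes rose and 8 fell, with a median of 0.28, against 41.1% and 23.4% of all genes. After median centring 55 rose and 8 fell, against 33.4% and 30.2% of all genes, and after quantile normalization 46 rose and 11 fell, against 31.2% and 32.1%. Among the marker genes, the 9 of floral organs and anthers, and STM and KNAT1 of the meristem list, were also higher in mettl16. The 9 floral genes passed the filter only through their mettl16 values and could not have been called lower. CLV1 of the meristem list changed by 0.10, a call lost after median centring and after quantile normalization. WUS and CLV3 were too low to be tested. LHCB1.1 of the leaf list fell by 0.61. Whether these markers bear on the counts above was not tested.

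**Figure D3:**
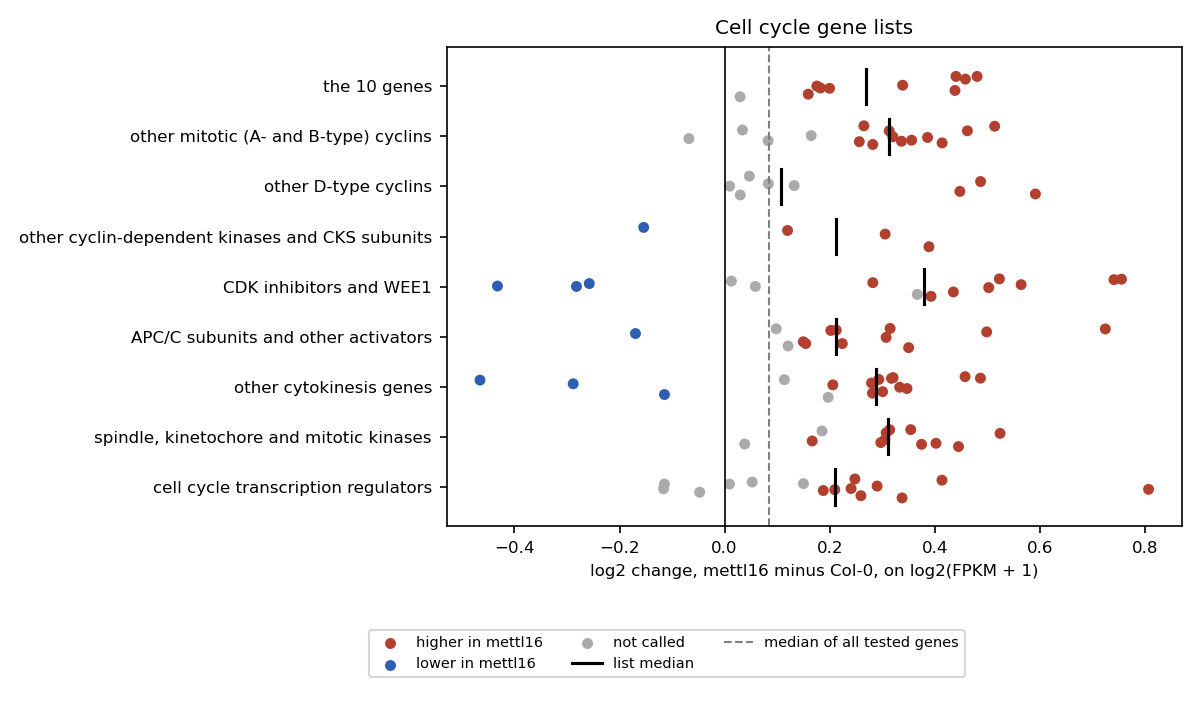
Log2 change on log2(FPKM + 1), mettl16 minus Col-0 (horizontal axis), of each tested gene of the 10 and of the 8 lists of other cell cycle genes (vertical positions). Red points were called higher in mettl16, blue points lower and grey points not called, black bars are list medians, and the dashed line is the median of all tested genes, 0.08. List medians run from 0.11 for other D-type cyclins to 0.38 for CDK inhibitors and WEE1, where 3 blue points lie at the left.

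The m6A values come from the authors' deposited table, in which a peak has a log2 fold change and a false discovery rate (FDR) but no value per sample. At an FDR under 0.05, 51.6% of its 6437 peak rows were lower in mettl16 and 17.6% higher, with a median fold of -0.227. At an FDR under 0.01, 39.3% were lower and 11.8% higher. Of all genes tested for expression 29.1% had a peak row, and of the 10 genes 2 had one. A gene without a row is not thereby shown to lack the mark.

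CYCD3;1 had 1 peak, in the 3' UTR (chromosome 4, 16359196 to 16359555, build TAIR10), whose 360 bases reach the annotated end of the gene. In the authors' deposited table its fold was -0.31 on the log2 scale (FDR 0.00389), against a transcript change of 0.44. That fold lay near the middle of the table, since 34.8% of peak rows had a lower one, and it is -0.08 when the table's median is taken off. Both relatives, CYCD3;2 and CYCD3;3, also had a 3' UTR peak that was lower in the authors' deposited table, with folds of -0.24 (FDR 0.000537) and -0.43 (FDR 0.0145). Less the table's median these folds are -0.009 and -0.20. All 3 D3-type cyclins had a lower peak and a higher transcript in mettl16, a combination that 27.4% of the 5681 tested genes with a peak row had. CDKB1;2, relative of another of the 10, had a 3' UTR peak with a fold of -0.39 that did not pass (FDR 0.102) in the authors' deposited table.

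CDC20.1 had 1 peak, also in the 3' UTR (chromosome 4, 16044412 to 16044622), 211 bases wide and ending 60 bases before the annotated end. In the authors' deposited table its fold was 0.34 on the log2 scale with an FDR of 0.055, just outside the threshold, and 86.6% of peak rows had a lower fold.

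Of the other cell cycle genes 24 had 26 peak rows, 23 of them in 3' UTRs. Of these 26 rows of the authors' deposited table, 13 were lower, 2 higher and 11 not called, with a median of -0.309. The count of lower rows is near the table's share of 51.6%. Among these 26 rows BUBR1 had the lowest fold, -0.75 (FDR 3.39e-05 in the authors' deposited table), and 6.34% of all peak rows had a lower one. HIK, a kinesin of the microtubule array that guides the cell plate, had -0.53 (FDR 8.13e-09) and MYB3R1 had -0.25 (FDR 0.0372) in the authors' deposited table. The highest fold of the 26 was that of CDC27A, 0.54 (FDR 0.0245 in the authors' deposited table), and 93.1% of all peak rows had a lower one. Of the 24 genes, 9 (37.5%) had both a lower peak and a higher transcript, against 27.4% of all tested genes with a peak row, and the difference was not tested. The sources used here do not give how the authors accounted for transcript level in these folds.

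**Figure D4:**
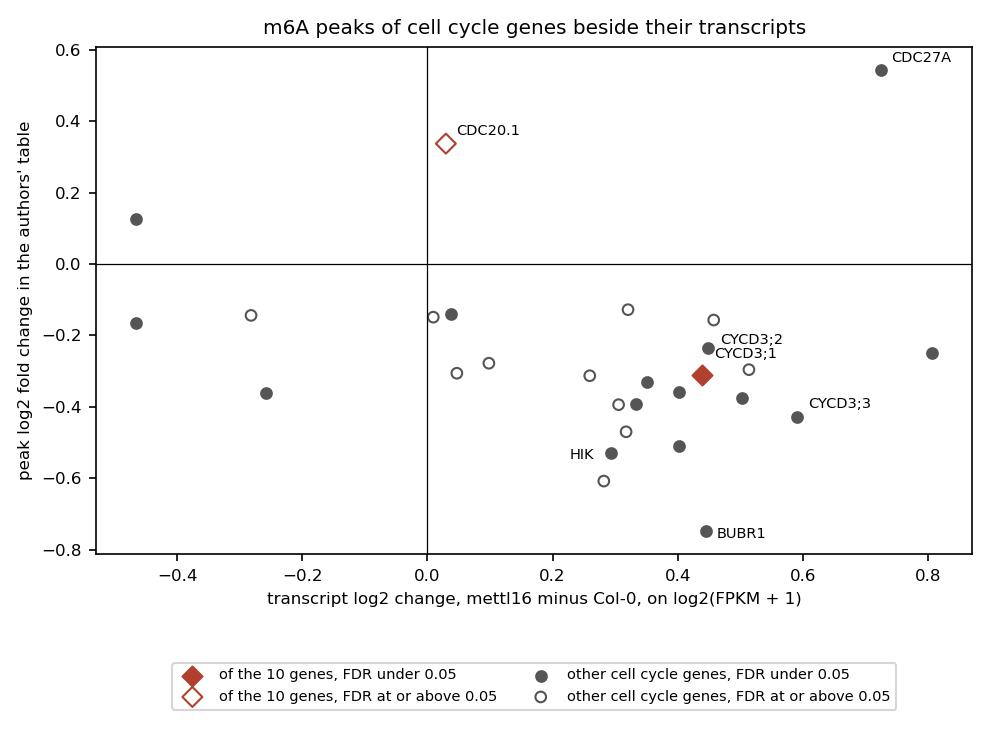
Peak fold on the log2 scale from the authors' deposited table (vertical axis) against the transcript log2 change, mettl16 minus Col-0 (horizontal axis), for each peak row of the 10 genes (red diamonds) and of the other cell cycle genes (grey circles). Filled symbols had an FDR under 0.05. The D3-type cyclins lie at the lower right among other cell cycle genes, and CDC20.1 above 0 near the centre.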

How the data were processed

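Poly(A) RNA of the aerial part was cut to about 100 nt, and input and m6A-enriched fragments became strand-marked libraries read as 150 bp pairs, per the labels' protocols. The submitters' processing notes list cutadapt, fastp, HISAT2, StringTie, HOMER, edgeR and build TAIR10, with no roles or versions. The authors deposited FPKM per gene for the 6 RNA-seq inputs. The authors also deposited, for each m6A peak, a log2 fold change, a p-value, and a log10 FDR used here as a score, per the file headers. The fold was read as mettl16 over Col-0 from the order of names in that table.

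FPKM does not store depth, and relative depth was estimated from step sizes of values under 0.15 FPKM. The 19505 of 25566 genes whose mean reached 0.5 FPKM were tested here on log2(FPKM + 1) with limma 3.58.1 in R 4.3.3 (trended, robust prior, two-sided, Benjamini-Hochberg over all tested genes), which understates changes of low genes. The test was tried on simulated data. Ratios of 5 pairs of relatives, chosen after values had been seen, used exact permutation tests in SciPy 1.17.1. Python 3.11.15, pandas 2.3.3, NumPy 2.4.6 and matplotlib 3.10.9 were also used. Alternatives were another pseudocount (0.1), filter (none, 1 FPKM), scaling (median centring, quantile, TPM), prior variance, a replicate block and leaving out each library. Symbols came from RefSeq (TAIR10.1), which matched 95.4% of identifiers.

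The members and lists were chosen with earlier results of these data known. All 10 members are named, and in each list up to 2 called genes with the largest rise and 2 with the largest fall, with the nearest relatives of members and CDKA;1. Further list genes outside that rule were named after their values were seen. Same-numbered libraries were checked for shared deviations, with none clearly seen, and the main fit did not pair them.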

Additional observations from a re-analysis of the deposited data

How the results depend on the processing

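The 5 genes called after median centring and after quantile normalization kept their call and direction under all 14 alternatives. The count of genes called higher, 9 of 10, was 5 after median centring and 5 after quantile normalization. It was 9 after rescaling to TPM and 6 to 8 with a library left out, while none was called lower. Median centring put CYCA1;1 at 0.105, CYCB1;2 at 0.0884, CDKB1;1 at 0.112, CDKB2;2 at 0.129 and CDC20.1 at -0.0413. Quantile normalization put the same genes, in that order, at 0.105, 0.0932, 0.0822, 0.129 and -0.0219. None of these 5 was called there. The median change of all genes, 0.0849 on the deposited scale, was 0.0141 after median centring and -0.00558 after quantile normalization. With a library left out the 5 genes, in that order, lay at 0.16 to 0.205, 0.123 to 0.217, 0.158 to 0.207, 0.12 to 0.276 and -0.0142 to 0.0865. With no filter or with a plain prior variance CYCB1;2 (0.159) and CDKB2;2 (0.2) kept their values but lost the call, and the cause was not tested. Same-numbered libraries deviated from their group means with correlations of -0.0823, 0.00866 and 0.00173 over genes. Differently numbered libraries gave -0.0826 to 0.084. The check showed no clear shared deviation, but it cannot tell whether same-numbered samples were handled together, which the labels do not say. With the replicate block CDKB2;2 (0.2) was not called (limma adjusted p = 0.0508), and no other call among the 10 changed. FPKM does not store depth, so counting error could not be set beside these small changes, and 3 libraries a genotype limit the precision.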
